A study of Mus musculus with 550 samples.

Results

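Complex I (NADH:ubiquinone oxidoreductase) was followed through 32 of its nuclear-encoded subunit genes, chosen from the array annotation as every symbol made of Ndufa, Ndufb, Ndufc, Ndufs or Ndufv and a number, among 17097 genes with a probe set of their own. Assembly factors (Ndufaf genes) were kept apart. The 32 genes were read by 59 probe sets, and 18 genes had several. For each organ, the probe set with the highest mean level stood for its gene. Of the other subunits of the complex, Ndufab1 was read apart from the members, and the rest were not analysed here.

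Complex I is the entry point of the mitochondrial respiratory chain. Its hydrophilic arm takes electrons from NADH at the N module (the flavin-binding Ndufv1 with Ndufv2 and Ndufs1) and passes them over iron-sulphur clusters to ubiquinone at the Q module (Ndufs3, Ndufs7, Ndufs8 and their neighbours), while the membrane arm pumps protons. Most Ndufa and Ndufb proteins are supernumerary subunits that surround this core and are needed for its assembly and stability. Ndufa4 was first described as a complex I protein and is now placed in complex IV. Kidney tubules, neurons and absorptive intestinal cells depend strongly on oxidative phosphorylation. Dimethyl fumarate and monoethyl fumarate are electrophilic esters of fumarate, an intermediate of the tricarboxylic acid cycle, and are known to activate the NRF2 antioxidant pathway.

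The study gave C57Bl/6 mice 1 acute dose of vehicle (hydroxypropyl methylcellulose), of dimethyl fumarate (DMF) at 100 or 179.2 mg/kg, of a calcium, magnesium and zinc salt mixture of monoethyl fumarate (MEF) at 79.2 mg/kg, or of DMF at 100 mg/kg together with MEF at 79.2 mg/kg (the combination). Kidney, jejunum, the mesenteric and inguinal lymph nodes, spleen, brain and whole blood were taken 6 or 12 h later, and a group labelled NAIVE was taken at 12 h alone. In all, 550 arrays formed 77 groups of 3 to 8, and no genetic alteration was stated for any group. The age and sex of the mice, the housing and feeding before sampling, and the handling of the naive mice were not given in the sources used here. Levels below are log2 probe set values. Each organ and time formed a set with a floor of its own, so levels are compared only within a set and only for the same probe set. Differences are log2 differences of group means with their standard error (SE), called where the adjusted p (limma, Benjamini-Hochberg over 17097 genes) was below 0.05. RNA came from whole organs, so fewer cells of a type and less RNA per cell cannot be told apart.

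Promoters are shown for the 3 members called higher most often after dosing, Ndufb4 (9 comparisons), Ndufv1 (7) and Ndufv2 (6), none of which was called lower, and for Ndufa9, the member called lower most often (5, and never higher). Ndufa10, Ndufa11 and Ndufb8 were called higher in 5 and lower in none and are not shown. Each line gives the 250 bases before the RefSeq start (build GRCm38.p6), 5′ to 3′ on the gene's strand, which was the minus strand for all 4. Capitals mark a match to the antioxidant response element core, the letters TGACNNNGC on either strand.
Ndufb4 (chr16:37654369-37654618): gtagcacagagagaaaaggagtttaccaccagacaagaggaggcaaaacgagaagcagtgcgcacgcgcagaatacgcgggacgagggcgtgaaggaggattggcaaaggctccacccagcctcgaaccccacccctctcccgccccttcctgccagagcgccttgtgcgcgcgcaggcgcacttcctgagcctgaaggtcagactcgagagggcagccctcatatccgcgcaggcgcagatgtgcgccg
Ndufv1 (chr19:4012756-4013005): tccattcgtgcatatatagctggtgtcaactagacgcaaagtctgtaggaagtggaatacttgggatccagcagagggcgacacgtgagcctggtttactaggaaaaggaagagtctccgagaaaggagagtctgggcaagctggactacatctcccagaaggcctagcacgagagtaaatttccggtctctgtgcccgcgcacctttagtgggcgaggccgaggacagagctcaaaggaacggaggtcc
Ndufv2 (chr17:66101560-66101809): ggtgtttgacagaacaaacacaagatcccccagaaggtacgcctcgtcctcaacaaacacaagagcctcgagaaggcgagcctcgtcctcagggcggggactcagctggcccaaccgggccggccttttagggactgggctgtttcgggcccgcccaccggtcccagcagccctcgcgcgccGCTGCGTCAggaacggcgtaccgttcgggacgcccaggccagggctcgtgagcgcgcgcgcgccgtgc
Ndufa9 (chr6:126849145-126849394): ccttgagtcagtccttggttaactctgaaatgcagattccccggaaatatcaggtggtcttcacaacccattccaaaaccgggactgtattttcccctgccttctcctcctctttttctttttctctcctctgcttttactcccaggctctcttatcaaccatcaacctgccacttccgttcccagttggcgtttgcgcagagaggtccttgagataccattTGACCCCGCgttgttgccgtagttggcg
The core stood on the opposite strand 68 bases before the Ndufv2 start (position -68) and on the gene's strand at -28 in Ndufa9, 1 member that rose and 1 that fell. Over the 29 members with a promoter entry, 4 (13.8%) held this core, against 11.5% of 27025 genes with an entry. The nuclear respiratory factor 1 core GCATGCGC, searched on both strands, lay in Ndufa6, Ndufa8 and Ndufa11, 3 of 29 members (10.3%) against 2.56% of genes. The ETS core CCGGAAGT was found in 0 of 29 members against 3.23% of genes, and the Sp1 core GGGCGG in 11 of 29 (37.9%) against 35.4%. None of these letter strings contains another. They describe letters in a window and were not tested against the values.

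After dosing, complex I transcripts moved little and unevenly. Over the 56 comparisons of a dosed group with vehicle, 104 of 1792 gene and comparison pairs passed the test (5.80%), 81 higher and 23 lower, while 3.59% of the pairs over all genes passed. In 35 of the 56 comparisons limma called 0 members. Between 0 and 12 of the 32 had an unadjusted p below 0.05 in those comparisons, and 0.0% to 5.9% of all genes were called. The largest called rise was that of Ndufv1 in the spleen 6 h after DMF 179.2 mg/kg, at 0.42 (1.34-fold), and the largest called fall was that of Ndufa9 in the same comparison, at -0.25. Only 16 of the 104 called differences exceeded 0.25 in size. More members differed between naive and vehicle mice. Over 7 organs, 73 of 224 pairs passed (32.6%), 61 higher and 12 lower in naive, against 15.9% over all genes. The shares over all genes include dim genes near the floor. Among brighter genes alone, the shares of genes called were higher wherever both are given below. The pooled shares were not recomputed for brighter genes, so they are not read as an excess particular to complex I. The numbers that mark the samples in the labels recur from organ to organ under 1 treatment and time each, so the organs appear to come from the same mice. Pairs pooled over organs, and a member called in several organs, are therefore not independent. The dosed groups and the naive group of a set share their vehicle arrays, so their differences are not independent of each other and are given side by side.

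**Figure D1:**
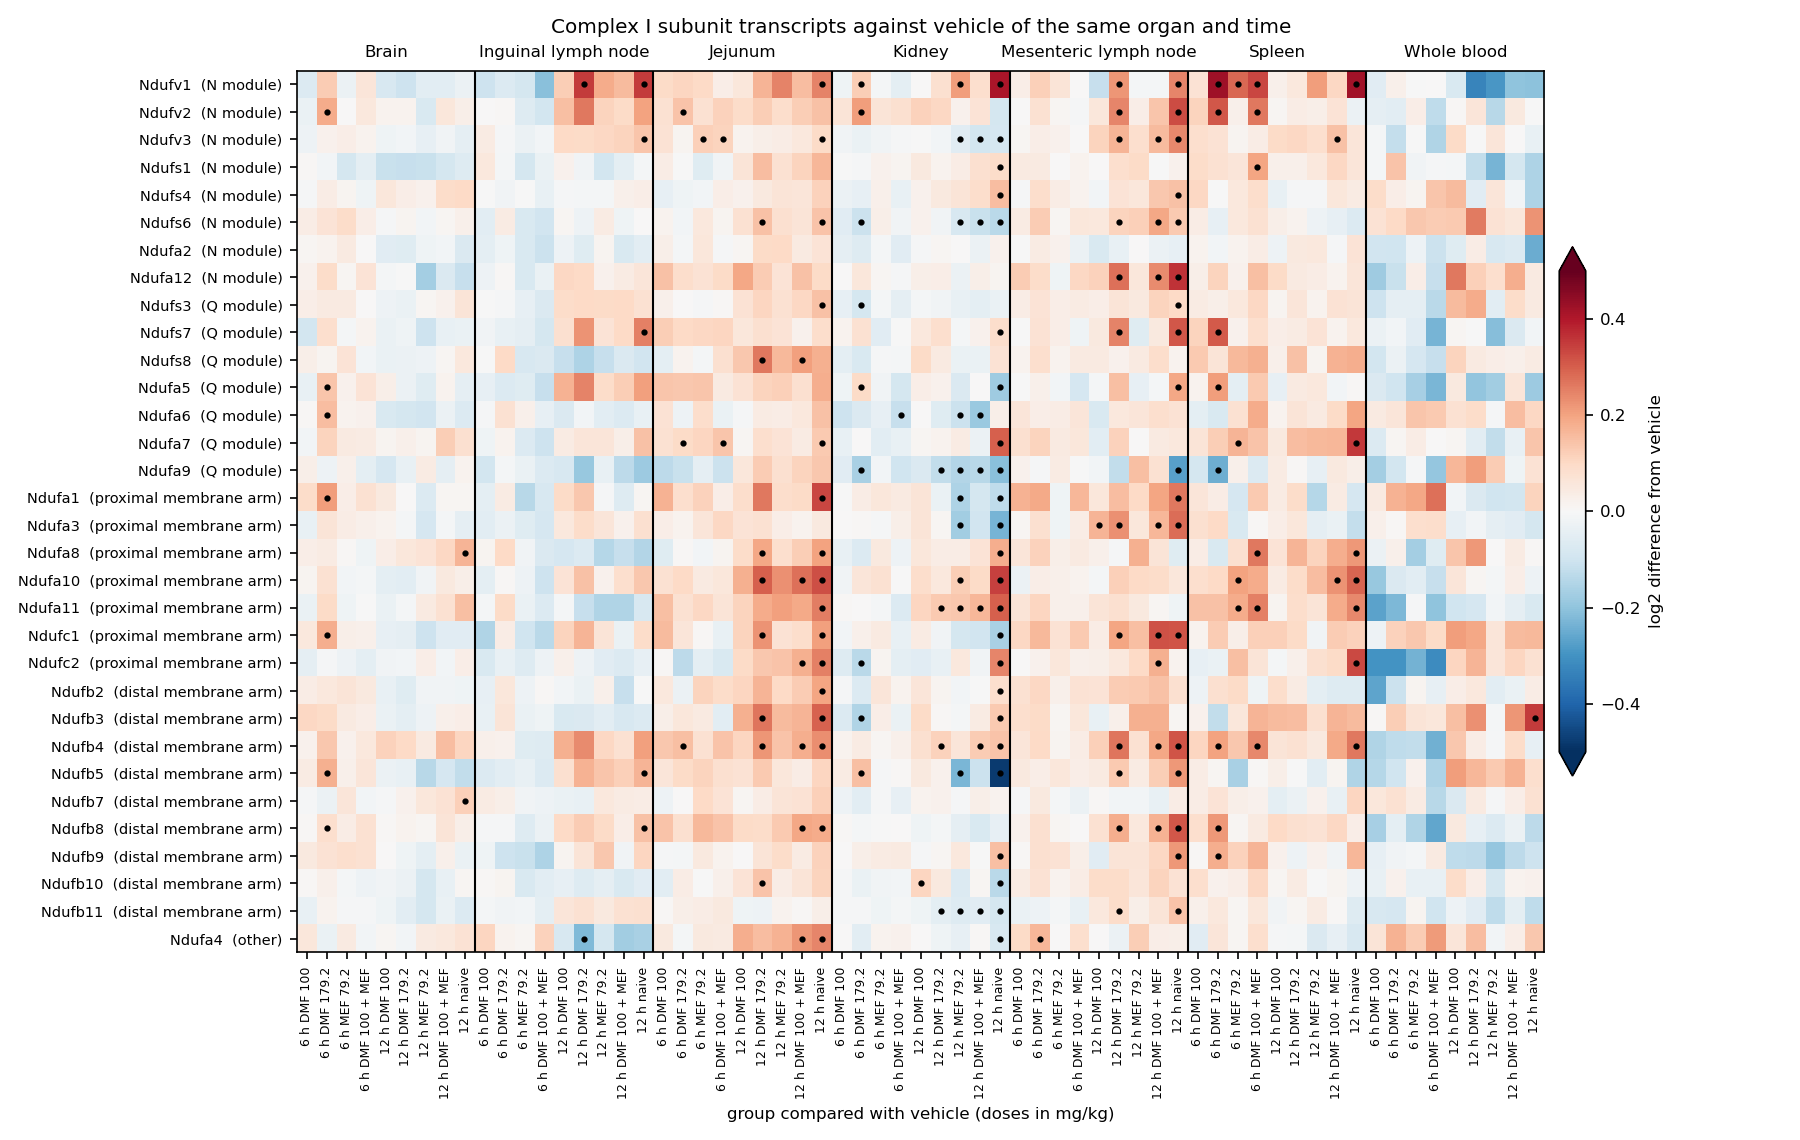
Log2 difference from vehicle (colour) of each of the 32 members (rows) in each comparison with vehicle (columns, by organ and time), with marks on the pairs called at an adjusted p below 0.05 (limma). Called pairs gather in the kidney, the mesenteric node and jejunum at 12 h and the spleen at 6 h, with few in the brain, inguinal node and blood.

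In the kidney the members split. Between naive and vehicle mice at 12 h, 13 members were higher and 11 lower in naive kidneys, 24 of 32, where 26.8% of all genes were called higher and 19.2% lower. Among the 8549 brighter genes alone these shares were 29% and 36.2%, with 13 and 11 members called. The median member difference was 0.02. After a further quantile normalization 17 were called higher and 5 lower, with a median of 0.10, so the balance of the directions depended on the scaling.

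Ndufv1, the NADH- and flavin-binding subunit, had the largest rise. Its level was 12.04, 12.25 and 12.30 (lowest, median, highest of 6) in naive kidneys and 11.68, 11.80 and 11.91 in 8 vehicle kidneys. The groups did not overlap (difference 0.41, SE 0.044, adjusted p = 8e-12), and the second Ndufv1 probe set differed by 0.22. Ndufa10, an accessory subunit of the proximal membrane arm, ran from 10.93 over 11.04 to 11.20 in naive and from 10.60 over 10.72 to 10.80 in vehicle kidneys (difference 0.34, SE 0.047, adjusted p = 6.1e-09), again without overlap. Ndufa7, a Q module accessory subunit, was 0.30 higher (SE 0.050, adjusted p = 8.1e-07).

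Ndufb5, a single-pass subunit of the distal membrane arm, had the largest fall. Its level was 11.42, 11.49 and 11.92 in naive kidneys and 11.89, 12.03 and 12.19 in vehicle kidneys, a difference of -0.48 (SE 0.054, adjusted p = 2.4e-11). The ranges overlapped through naive replicate 47, and without that array the difference was -0.55. The other Ndufb5 probe set, with a vehicle mean of 10.62, differed by only -0.02, so the fall was seen by 1 of 2 probe sets. Ndufa3, of the proximal membrane arm, was lower by both of its probe sets (-0.23, SE 0.030, adjusted p = 1.5e-09, and -0.42 for the second). Ndufa9, a Q module subunit that binds NADPH, was lower as well (difference -0.21, SE 0.040, adjusted p = 9.5e-06). Neither gene's groups overlapped.

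**Figure D2:**
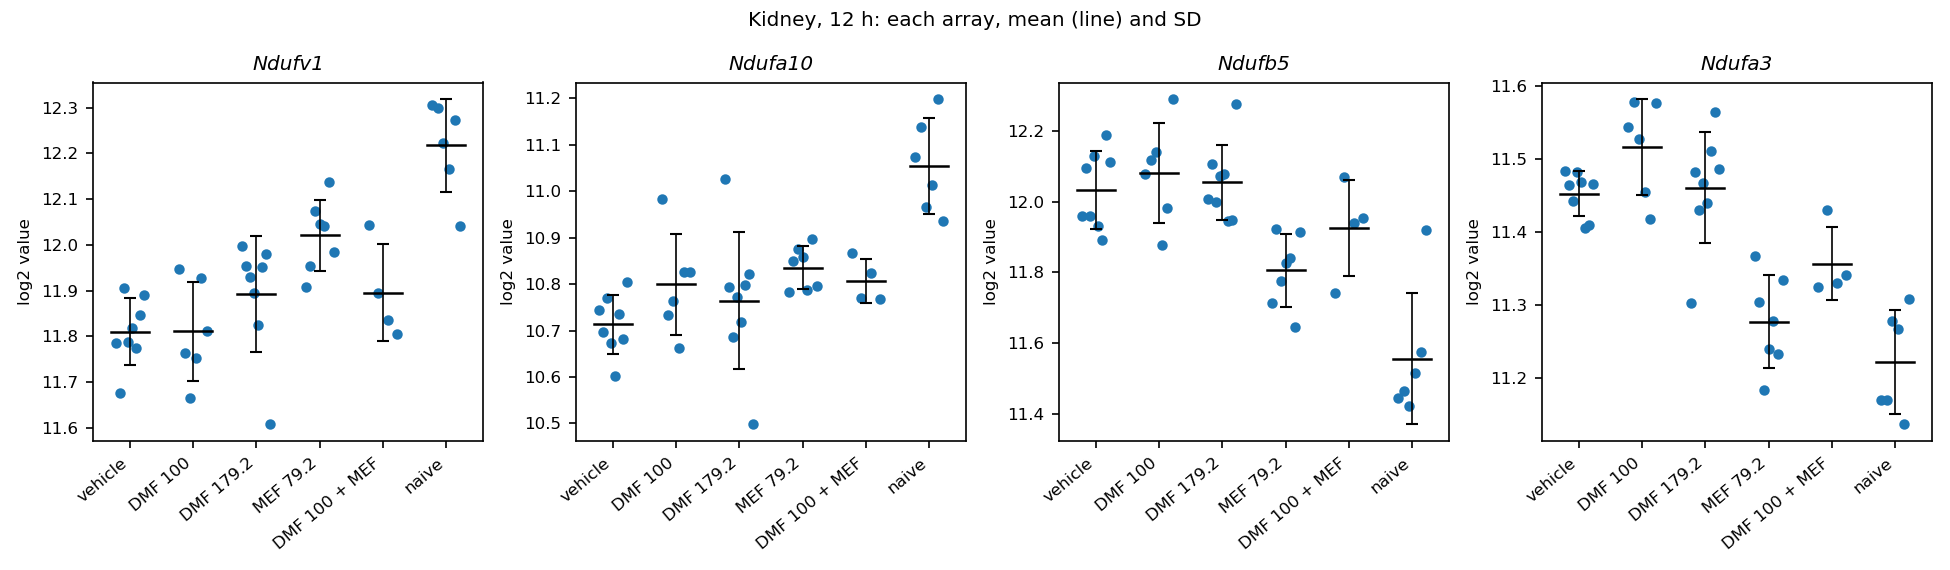
Log2 level of Ndufv1, Ndufa10, Ndufb5 and Ndufa3 in each kidney array at 12 h (points), by group, with a line at the group mean. Naive kidneys lie above vehicle for Ndufv1 and Ndufa10 and below it for Ndufb5 and Ndufa3, and the MEF group stands between them for Ndufv1, Ndufb5 and Ndufa3.

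Of the dosed groups, MEF at 79.2 mg/kg held the most called members in the kidney at 12 h, with 3 higher and 8 lower (7.04% and 10.5% of all genes). After the further quantile normalization these counts were 7 and 4. Ndufv1 ran from 11.91 over 12.04 to 12.14 in 7 MEF kidneys, above all 8 vehicle kidneys (difference 0.21, SE 0.043, adjusted p = 0.0002). Ndufa3 lay below all of them, at 11.18, 11.28 and 11.37 against 11.41, 11.46 and 11.48 (difference -0.18, SE 0.029, adjusted p = 7.1e-06). Ndufb5 was lower by its used probe set (-0.23, SE 0.052, adjusted p = 0.00085) and differed by -0.05 in the other. Ndufa10 and Ndufa11 of the proximal membrane arm were 0.12 and 0.14 higher, and Ndufa1 was lower (-0.15). With the mean of its probe sets Ndufa10 differed by only 0.07 (adjusted p = 0.31), and its call was also lost without vehicle replicate 2, 4, 5 or 7.

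The groups given DMF differed less from vehicle at 12 h. DMF 100 mg/kg had 1 member called higher, Ndufb10 (0.11), with 0.766% of genes higher. That call was lost with the place of the animal number as a covariate (0.07, adjusted p = 0.17), when fitted with vehicle alone and without vehicle replicate 4, 5 or 6. DMF 179.2 mg/kg had 2 higher (4.54% of genes), Ndufa11 (0.13) and Ndufb4 (0.11), and 2 lower (2.71%), Ndufa9 (-0.12) and Ndufb11 (-0.05). Without its replicate 24, which was the lowest of the 8 arrays for Ndufv1 (11.61) and Ndufa10 (10.50), 5 were higher and 1 lower. With the place of the animal number as a covariate neither direction held a call. With the mean of probe sets Ndufa11 differed by 0.07 (adjusted p = 0.36) and Ndufb11 by -0.01 (adjusted p = 0.90). The Ndufb11 call was also lost after a further quantile normalization, with dim genes left out, with vehicle alone and when any 1 of 5 arrays was left out. Together DMF and MEF gave 2 higher (5.42%) and 5 lower (5.6%). The 4 kidneys of this group had Ndufb4, a distal membrane arm subunit, at 12.18, 12.19, 12.21 and 12.26, above all vehicle kidneys (12.02 to 12.15; difference 0.13, SE 0.030, adjusted p = 0.002), and Ndufa11 at 11.18, 11.27, 11.33 and 11.33, again above them (difference 0.17). With place as a covariate neither was called (0.06 and 0.12), nor was Ndufa11 with the mean of probe sets (0.08). Ndufa6, a Q module accessory subunit, read 9.98, 10.09, 10.20 and 10.25 in them against 10.17, 10.31 and 10.41 in vehicle kidneys, overlapping (difference -0.18, SE 0.042, adjusted p = 0.0014). Fitted with vehicle alone, this group had 2 members higher and 1 lower, and Ndufa6 was no longer called (adjusted p = 0.083). Set against naive, DMF 179.2 mg/kg kidneys had 9 members higher and 9 lower (19.1% and 22.8% of genes), with Ndufb5 0.50 higher and Ndufv1 lower (-0.33).

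At 6 h, without a naive group, 9 kidney members were called after DMF 179.2 mg/kg, 4 higher and 5 lower, shares near those of all genes (15% and 9.99%). Ndufv2, which carries an iron-sulphur cluster beside Ndufv1, ran from 11.78 over 11.90 to 12.01 in 8 dosed kidneys and from 11.60 over 11.70 to 11.75 in 7 vehicle kidneys. These did not overlap (difference 0.21, SE 0.037, adjusted p = 1e-05), and the second Ndufv2 probe set differed by 0.39. Ndufb5 was higher by 0.15, with its 2 probe sets alike (0.15 and 0.14), and Ndufv1 by 0.12, which was 0.07 and uncalled with the mean of probe sets. Ndufa9 was lower (11.79, 11.95 and 12.06 against 12.05, 12.10 and 12.12, overlapping at 1 vehicle array; difference -0.16, SE 0.038, adjusted p = 0.00063), as were Ndufb3 of the distal arm (-0.15, without overlap) and Ndufc2 of the proximal arm (-0.13). The combination had 1 member lower, Ndufa6 (-0.12, without overlap; 6.93% of genes lower). After DMF 100 mg/kg (4.07% of genes) and MEF (5.9%) limma called 0 members, with 2 and 0 below an unadjusted p of 0.05.

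Among other transcripts of the kidney, the distal nephron list moved beside these calls at 12 h. Of its 5 genes, 1 was higher and 3 lower (Umod, Calb1 and Slc12a1) in naive kidneys, whose mean level of the list was 10.2 to 10.4 against 10.4 to 10.7 in vehicle kidneys, and 3 were lower after MEF (10.1 to 10.3). At 6 h after DMF 179.2 mg/kg, 2 of 4 neutrophil genes were higher, at a mean level of 4.25 to 5.32 against 3.95 to 4.21. The part of either in the complex I values was not tested.

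In the mesenteric lymph node, the gut-draining node, the members moved mostly 1 way at 12 h. Naive nodes had 17 members higher and 1 lower than vehicle (13.4% and 11.1% of genes; 18.1% and 21.4% among the brighter genes), with a median member difference of 0.12. DMF 179.2 mg/kg had 12 higher and none lower (8.98% of genes higher), with a median of 0.10, and the combination had 8 higher (1.82%), with a median of 0.11. DMF 100 mg/kg had 1 higher, Ndufa3 (0.17; 0.0585% of genes), and limma called 0 after MEF (0.602% of genes), with 9 below an unadjusted p of 0.05. All 5 differences use the same 8 vehicle arrays.

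Ndufa12, an accessory subunit of the N module, ran from 10.00 over 10.14 to 10.31 in vehicle nodes. It ran from 10.25 over 10.42 to 10.59 after DMF 179.2 mg/kg (difference 0.28, SE 0.061, adjusted p = 0.00075), from 10.24 over 10.38 to 10.48 after the combination (0.24, adjusted p = 0.015) and from 10.30 over 10.50 to 10.83 in naive nodes (0.36, adjusted p = 4.2e-06), each overlapping the vehicle range at its edge. After MEF it ran from 9.84 to 10.54 with a median of 10.21, and after DMF 100 mg/kg from 10.03 to 10.43 with a median of 10.29, neither called (differences 0.06 and 0.12). Ndufb4 followed the same order, with medians of 10.65 in vehicle, 10.74 after MEF, 10.81 after DMF 100 mg/kg, 10.84 after the combination, 10.90 after DMF 179.2 mg/kg and 10.97 in naive nodes. Only the naive nodes (10.86 to 11.04) stood clear of the vehicle range (10.47 to 10.85), with a difference of 0.32 (SE 0.059, adjusted p = 2.7e-05). DMF 179.2 mg/kg also had a called Ndufb4 difference, at 0.27 (SE 0.059, adjusted p = 0.00068), as did the combination (0.19, adjusted p = 0.042). The combination's Ndufb4 call was lost after a further quantile normalization, with the mean of probe sets (0.12, adjusted p = 0.081) and with vehicle alone. It was also lost without any 1 of vehicle replicates 1 to 6. With the mean of probe sets the combination's Ndufa12 call was lost as well (0.12, adjusted p = 0.089).

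Other members differed in which groups they moved. Ndufs7, the Q module subunit that holds the last iron-sulphur cluster before ubiquinone, was 0.25 higher after DMF 179.2 mg/kg (SE 0.055, adjusted p = 0.00072) and 0.31 higher in naive nodes. Ndufc1, of the proximal arm, was 0.32 higher after the combination (SE 0.071, adjusted p = 0.0037) and 0.31 higher in naive nodes. Ndufv2 was 0.33 higher in naive nodes by its used probe set (SE 0.062, adjusted p = 3.5e-05) and 0.24 higher after DMF 179.2 mg/kg. Ndufa9 moved the other way: 10.23, 10.45 and 10.71 in naive against 10.50, 10.73 and 10.94 in vehicle nodes, overlapping (difference -0.27, SE 0.048, adjusted p = 1.1e-05).

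The counts in dosed nodes depended on the reference group. With naive in its place, DMF 179.2 mg/kg had 0 members higher and 1 lower (1.54% of genes lower), the combination 2 higher and 7 lower (7.42% and 10.7%), DMF 100 mg/kg 1 higher and 15 lower (8.4% and 9.14%) and MEF 3 higher and 11 lower (11.2% and 16.6%), with member medians of -0.04, -0.01, -0.10 and -0.05. Over the members, the median shift of an array from the vehicle mean was -0.11 to 0.07 in vehicle nodes, 0.02 to 0.20 after DMF 179.2 mg/kg, 0.03 to 0.17 after the combination and 0.08 to 0.22 in naive nodes. Vehicle replicate 5 had the largest 3′ over 5′ differences of its group for Gapdh and Actb, 2.42 and 2.44, against group medians of 1.16 and 1.44. Without it the counts were 11 higher and 1 lower for DMF 179.2 mg/kg, 10 and 0 for the combination, and the call after DMF 100 mg/kg was lost. Fitted with vehicle alone, DMF 179.2 mg/kg had 7 higher and the combination 3. At 6 h the mesenteric node showed 1 called member, Ndufa4 after DMF 179.2 mg/kg (10.67, 10.70 and 10.84 against 10.44, 10.59 and 10.66, without overlap; difference 0.16, SE 0.041, adjusted p = 0.045; 0.316% of genes higher). The call was lost after a further quantile normalization.

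Single markers of other cells also differed in the mesenteric nodes at 12 h. In naive nodes 1 of 5 brown adipocyte genes, Cox8b, was 0.998 higher, and the list had a mean level of 3.07 to 3.59 against 2.77 to 3.22 in vehicle nodes. Also higher there were Cnn1 (1 of 5 smooth muscle genes), Rbfox3 (1 of 5 neuronal) and Slc5a2 (1 of 3 proximal tubule). Cd2, 1 of 4 T cell genes, was lower. So was Pdgfb, which is no enterocyte marker but stood in the enterocyte list through a synonym match. After DMF 179.2 mg/kg 1 of 4 T cell genes, Cd3e, was 0.19 higher (list mean 10.3 to 10.6 against 10.2 to 10.4), with 1 of 5 distal nephron genes (Aqp2). The distal nephron list had a mean level of 2.57 to 2.64 against 2.50 to 2.57 in vehicle nodes, where the floor was 2.19. After MEF the pancreatic acinar list reached 9.63 in its highest array (group median 2.41), against at most 2.44 in vehicle nodes. The macrophage gene Cd68 was 0.26 higher after that dose and 0.25 higher after the combination (1 of 5 genes of its list each), and Des, of smooth muscle, was lower after the combination (-0.40). Their part in the complex I values was not tested.

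**Figure D3:**
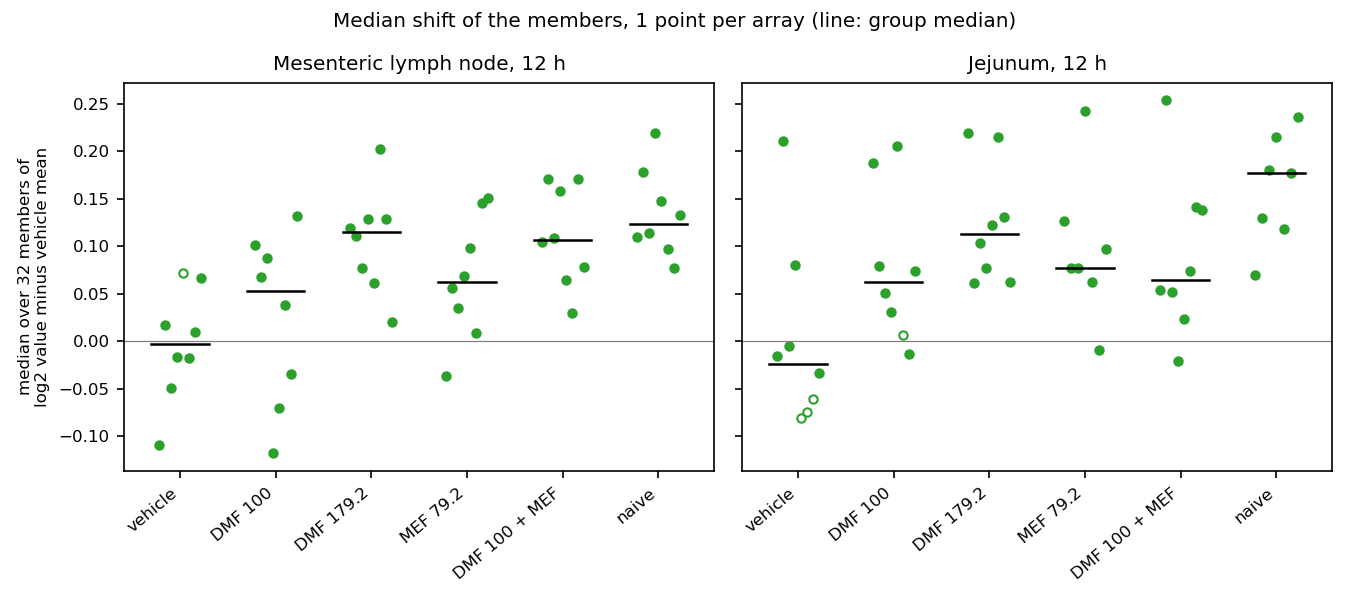
Median over the 32 members of the log2 difference from the vehicle mean, 1 point for each array, for the mesenteric lymph node and jejunum at 12 h. Open points mark jejunum arrays with Hoxb6 and Hoxb9 and mesenteric node vehicle replicate 5. Naive nodes lie at 0.08 to 0.22 and vehicle nodes at -0.11 to 0.07.

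In the jejunum at 12 h every called member was higher than in vehicle. Naive had 16 of 32 (3.61% of genes higher; 18 of 32 against 8.85% when dim genes were left out), DMF 179.2 mg/kg had 8 (4.74%) and the combination 6 (1.82%), with member medians of 0.15, 0.13 and 0.10. After DMF 100 mg/kg (0.632% of genes) and MEF (0.813%) limma called 0 members, with 9 and 12 below an unadjusted p of 0.05 and medians of 0.07 and 0.08. The same 8 vehicle arrays served all of these comparisons. They included 3 arrays, replicates 5, 6 and 7, in which Hoxb6 and Hoxb9, genes of the distal gut, averaged 7.44 to 7.90. Over the distal intestine list of 4 genes the array means were 2.60 to 5.80 in vehicle, 2.57 to 2.69 in naive, 2.49 to 2.90 after DMF 179.2 mg/kg and 2.63 to 2.81 after the combination, and 3 of 4 genes were called lower in each of these groups. Without the arrays above 6 in Hoxb6 and Hoxb9, the called members fell to 0 in naive, 1 after DMF 179.2 mg/kg and 0 after the combination. Fitted with vehicle alone, the counts were 1, 3 and 0, and without vehicle replicate 2 they were 23 in naive and 21 after DMF 179.2 mg/kg.

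After DMF 179.2 mg/kg, the member whose call stood without those arrays was Ndufs8, an iron-sulphur subunit of the Q module. It ran from 10.31 over 10.52 to 10.62 in vehicle and from 10.58 over 10.79 to 10.85 after DMF 179.2 mg/kg, overlapping slightly (difference 0.26, SE 0.062, adjusted p = 0.0042), and the difference was 0.27 without those arrays. Its 4 probe sets differed by 0.13 to 0.26. After DMF 100 mg/kg it ran from 10.54 to 10.72, after MEF from 10.53 to 10.77 and in naive from 10.44 to 10.83. None of these was called (0.14, 0.16 and 0.18). After the combination Ndufs8 was 0.20 higher (adjusted p = 0.047). That call was lost without the Hox arrays (0.21, adjusted p = 0.23), after a further quantile normalization and with vehicle alone. It was also lost without vehicle replicate 1, 3, 5, 6, 7 or 8. Ndufa10 was higher in naive (10.28, 10.45 and 10.53 against 9.89, 10.11 and 10.36; 0.32, SE 0.064, adjusted p = 0.0016), after DMF 179.2 mg/kg (0.30, SE 0.062, adjusted p = 0.0012) and after the combination (0.27, adjusted p = 0.0052). These Ndufa10 differences were 0.24, 0.22 and 0.19 without the Hox arrays and no longer called. With the mean of probe sets they were 0.16 in naive and 0.18 after the combination, both uncalled. Ndufb3 behaved alike, at 0.29 in naive and 0.27 after DMF 179.2 mg/kg with all arrays and at 0.17 and 0.14 without them. Ndufa1 of the proximal arm was 0.34 higher in naive, and Ndufa4 0.22 higher after the combination, both uncalled without the Hox arrays (0.24 and 0.11).

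At 6 h the jejunum had smaller differences. DMF 179.2 mg/kg had 3 members higher (5.6% of genes): Ndufb4 (0.15), Ndufv2 (0.14) and Ndufa7 (0.10). The combination had 2 (4.21%), Ndufa7 (0.14) and Ndufv3 (0.11), and MEF 1 (0.883%), Ndufv3 (0.12). The 5 MEF arrays had Ndufv3, a small N module subunit, at 12.64, 12.65, 12.66, 12.67 and 12.69, and vehicle arrays ran from 12.43 over 12.56 to 12.61, below all of them. This call was lost after a further quantile normalization (0.09, adjusted p = 0.15), with vehicle alone and without MEF replicate 80, 81 or 82. DMF 100 mg/kg had 0 called by limma (2.61% of genes), with 5 below an unadjusted p of 0.05. After a further quantile normalization, 1 of these 6 calls was left by count.

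In the spleen most calls of the dosed groups fell at 6 h. DMF 179.2 mg/kg had 7 members higher and 1 lower, shares near those of all genes (16.6% and 6.4%). The combination had 6 higher (2.67% of genes) and MEF 4 higher (0.983%). Limma called 0 after DMF 100 mg/kg (0.146%), with 9 below an unadjusted p of 0.05. Ndufv1 ran from 10.10 over 10.26 to 10.48 in 8 vehicle spleens and from 10.25 over 10.76 to 10.85 in 7 spleens after DMF 179.2 mg/kg. The overlap came from replicate 67, and the difference was 0.42 with it (SE 0.077, adjusted p = 4e-05) and 0.50 without it. After the combination the 4 spleens had Ndufv1 at 10.44, 10.60, 10.65 and 10.80 (difference 0.33, SE 0.092, adjusted p = 0.028). This call was lost with the place of the animal number as a covariate (0.24, adjusted p = 0.29), with vehicle alone (adjusted p = 0.081), without replicate 84 or 86 of the combination and without vehicle replicate 51 or 54. After MEF Ndufv1 ran from 10.48 over 10.55 to 10.72, just above all vehicle spleens (0.29, SE 0.075, adjusted p = 0.021).

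Ndufv2 and Ndufs7 rose with it after DMF 179.2 mg/kg. Ndufv2 was at 10.46, 10.70 and 10.78 against 10.25, 10.33 and 10.49 (difference 0.31, SE 0.045, adjusted p = 8.2e-07), and its second probe set differed by 0.42. Ndufs7 was at 11.90, 12.18 and 12.31 against 11.79, 11.82 and 11.94 (difference 0.31, SE 0.050, adjusted p = 5.5e-06), and by 0.26 in its second probe set. Ndufa9 fell, at 9.94, 10.28 and 10.32 against 10.34, 10.46 and 10.53, without overlap (difference -0.25, SE 0.047, adjusted p = 8.5e-05). After MEF, Ndufa9 ran from 10.40 to 10.56 and was not called (0.02).

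**Figure D4:**
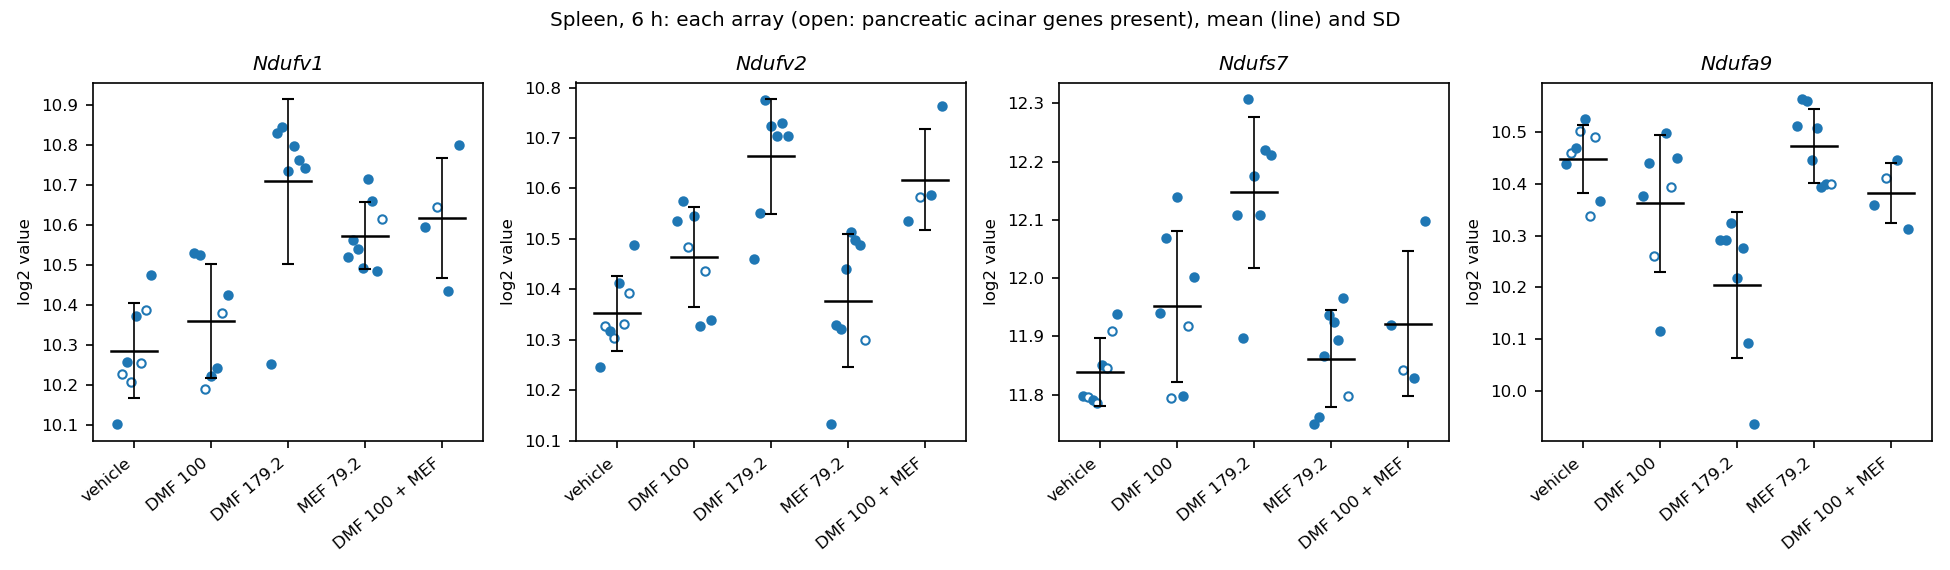
Log2 level of Ndufv1, Ndufv2, Ndufs7 and Ndufa9 in each spleen array at 6 h (points), by group, with a line at the group mean. Open points mark arrays with pancreatic acinar genes. After DMF 179.2 mg/kg, Ndufv1, Ndufv2 and Ndufs7 lie mostly above vehicle and all 7 Ndufa9 values lie below it.

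The spleen arrays carried markers of other tissue. Over 4 pancreatic acinar genes the array means were 2.88 to 12.0 in vehicle spleens at 6 h and 2.79 to 2.88 after DMF 179.2 mg/kg, and replicates 52, 54, 56 and 57 of the vehicle group were far above the rest. Without arrays holding acinar transcripts, DMF 179.2 mg/kg had 4 members higher and 1 lower, and the combination and MEF 0 each. The 4 members named for DMF 179.2 mg/kg kept their calls there, at 0.41 for Ndufv1, 0.30 for Ndufv2, 0.30 for Ndufs7 and -0.25 for Ndufa9. Ndufv1 was then 0.31 for the combination and 0.27 for MEF, close to the values with all arrays but no longer called. Neutrophil genes (3 of 4 higher, at 8.69 to 9.46 against 8.15 to 8.88) and monocyte genes (3 of 5 higher, at 10.5 to 10.8 against 10.2 to 10.7) were also raised after DMF 179.2 mg/kg, with 2 of 4 T cell genes and 1 of 4 B cell genes lower. Their part in the complex I values was not tested.

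At 12 h few spleen members differed from vehicle in the dosed groups. The combination had 2 members called higher (2.8% of genes). They were Ndufa10, at 9.07, 9.12, 9.13 and 9.19 against 8.80, 8.93 and 8.98 (0.22, adjusted p = 0.037), and Ndufv3 (0.15, adjusted p = 0.01). Both calls were lost without the acinar arrays, at 0.20 and 0.14. Limma called 0 after DMF 100 mg/kg (0.0175% of genes), DMF 179.2 mg/kg (0.474%) and MEF (0.924%), with 4, 6 and 6 members below an unadjusted p of 0.05. The 3 naive spleens had 7 members higher (10.3% of genes), and 12 after a further quantile normalization. They read 10.24, 10.38 and 10.48 for Ndufv1, above the vehicle range of 9.73 to 10.21 (difference 0.42, SE 0.103, adjusted p = 0.0021). Ndufa7 read 9.83, 9.99 and 10.13 in them against 9.49, 9.65 and 9.74 (0.35, adjusted p = 8.5e-05), and Ndufc2 9.77, 9.78 and 9.86 against 9.36, 9.43 and 9.65 (0.33, adjusted p = 0.0005). None of the naive or vehicle spleens at 12 h held acinar transcripts. Leaving out acinar arrays therefore changed only the spread shared with other groups, and 7 members were called higher as well. That rerun cannot show whether acinar tissue mattered for these calls.

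In the brain 7 members were higher and none lower 6 h after DMF 179.2 mg/kg (5.61% of genes higher), with a median of 0.07. Ndufb5, named after its values were seen, ran from 12.56 over 12.60 to 12.77 in 8 dosed brains and from 12.37 over 12.46 to 12.55 in 8 vehicle brains, without overlap (difference 0.18, SE 0.046, adjusted p = 0.013). Ndufv2 was at 11.49, 11.61 and 11.76 against 11.34, 11.41 and 11.56 (0.19, SE 0.053, adjusted p = 0.022), Ndufa1 was 0.21 higher (adjusted p = 0.037) and Ndufc1 0.18 higher (adjusted p = 0.014), each overlapping vehicle. With the place of the animal number as a covariate, none of the 7 calls was left, and 4 were left after a further quantile normalization. Monocyte and macrophage genes (2 of 5 higher, at 6.5 to 6.82 against 6.20 to 6.56) moved in the same comparison, and their part was not tested. In the other 3 groups at 6 h limma called 0 members, with 2 below an unadjusted p of 0.05 after DMF 100 mg/kg (0.0117% of genes called), 1 after the combination (0.105%) and 3 after MEF (0.123%). At 12 h the 4 dosed groups had 0, with 2 for DMF 100 mg/kg (0.0234%), 6 for the combination (1.45%), 3 for DMF 179.2 mg/kg (1.31%) and 8 for MEF (0.0877%). Naive brains had 2 members higher (1.44%), Ndufa8 (0.17) and Ndufb7 (0.12), and neither call was left when they were fitted with vehicle alone or with place as a covariate. The 3′ over 5′ differences of these naive brains lay wholly below those of vehicle brains, at 0.601 to 0.709 against 0.726 to 0.913 for Gapdh and 1.59 to 1.76 against 1.83 to 2.06 for Actb. Their part in the 2 calls was not tested.

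In the inguinal lymph node the calls turned on the vehicle group of 4. At 12 h Ndufv1 was at 9.80, 10.02, 10.15 and 10.23 in vehicle nodes, replicate 1 lowest, and at 10.27, 10.42 and 10.45 after DMF 179.2 mg/kg (difference 0.35, SE 0.103, adjusted p = 0.018), without overlap. Naive nodes ran from 10.27 over 10.40 to 10.60 (0.35, adjusted p = 0.011). Ndufa4 was at 9.90, 9.91, 10.00 and 10.25 in vehicle nodes, replicate 1 highest, and at 9.68, 9.75 and 9.98 after DMF 179.2 mg/kg (-0.22, adjusted p = 0.034). In all, DMF 179.2 mg/kg had 1 member higher (7.89% of genes) and 1 lower (4.45%), and naive had 5 higher (8.4%), among them Ndufs7 (0.25) and Ndufb5 (0.17). Without vehicle replicate 1 no member was called in either. In naive nodes 2 of 4 T cell genes, Cd3e (0.17) and Cd5 (0.34), and 1 of 5 neuronal genes, Stmn2 (0.50), were higher, while 1 of 5 macrophage genes, Mpeg1 (-0.18), was lower. The T cell list had a mean level of 10.7 to 10.9 against 10.6 to 10.8 in vehicle nodes. After DMF 179.2 mg/kg 1 of 4 T cell genes, Cd2 (-0.17), was lower and 1 of 5 macrophage genes, Lyz2, higher. Ucp1, 1 of 5 brown adipocyte genes, was lower in naive nodes (-0.41) and after DMF 179.2 mg/kg (-0.40). It was called lower in each other dosed group at 12 h as well, against the same 4 vehicle arrays. The brown adipocyte list had a mean level of 2.71 to 3.03 in vehicle nodes, where the floor was 2.18. The white adipocyte list varied more between arrays. Its mean level was 7.896 to 9.198 in vehicle nodes, 8.405 to 11.679 in naive nodes and 6.564 to 10.389 after DMF 179.2 mg/kg. The median difference of its 3 genes was 0.909 in naive nodes and 0.139 after DMF 179.2 mg/kg, with 0 called in either. The part of these markers in the complex I values was not tested. Limma called 0 at 12 h after DMF 100 mg/kg (1.27% of genes), the combination (3.53%) and MEF (1.05%), with 2, 2 and 3 below an unadjusted p of 0.05. At 6 h it called 0 in all 4 dosed groups, with 0 for DMF 100 mg/kg (0.0292%), 3 for the combination (0.433%), 0 for DMF 179.2 mg/kg (0.234%) and 2 for MEF (0.00585%).

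In whole blood 1 comparison held a call. Ndufb3 read 9.91, 10.06, 10.08, 10.15 and 10.50 in 5 naive samples and ran from 9.64 over 9.76 to 9.98 in 7 vehicle samples, overlapping at 1 naive sample (difference 0.35, SE 0.077, adjusted p = 0.018; 0.205% of genes higher). Without naive replicate 48 it was not called. No dosed group had a called member by limma at 6 h (0.0% to 0.0702% of genes) or at 12 h (0.00585% to 0.322%). Between 0 and 5 members were below an unadjusted p of 0.05 in each. Differences in blood were as large as elsewhere but noisier: Ndufv1 differed by -0.33 after DMF 179.2 mg/kg at 12 h with an SE of 0.127 (8.12, 8.39 and 8.61 against 8.28, 8.74 and 8.88), and its adjusted p was 0.25.

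The higher DMF dose was set against the lower one directly. At 6 h DMF 179.2 mg/kg exceeded 100 mg/kg in 6 members in the brain (6.42% of genes higher), 5 in the spleen (4.04%) and 3 in the kidney (6.28%). Ndufv2 was among them in all 3 organs, at 0.22 in the brain, 0.20 in the spleen and 0.14 in the kidney, as was Ndufv1, at 0.19, 0.35 and 0.14. Ndufa5, a Q module accessory subunit named here after its values were seen, was also called in all 3, at 0.18, 0.19 and 0.12. Ndufa9 was lower at the higher dose in the spleen (-0.16, adjusted p = 0.042; 1.47% of genes lower). At 12 h, 2 members differed in the mesenteric node (3.16% higher), Ndufv1 (0.33) and Ndufs7 (0.20), and limma called 0 in the other 6 organs, with 0 to 5 members below an unadjusted p of 0.05 and 0.00585% to 0.55% of genes called. At 6 h it called 0 in the jejunum, both lymph nodes and whole blood, with 1 or 2 members below an unadjusted p of 0.05 and 0.0% to 0.316% of genes called. MEF was given at 1 dose that matches neither DMF dose, so no direct comparison of the 2 esters was made.

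The effect of DMF 179.2 mg/kg was also compared between 12 h and 6 h, as the difference of the 2 differences from vehicle. In the spleen 3 members had a higher effect at 12 h (2.25% of genes) and 3 a lower one (3.84%). Ndufv1 went from 0.42 at 6 h to 0.05 at 12 h, a change of -0.37 (SE 0.110, adjusted p = 0.03). Ndufv2 changed by -0.27 and Ndufs7 by -0.27, while Ndufa9 went from -0.25 to 0.00, a change of 0.25 (SE 0.067, adjusted p = 0.016). In the jejunum Ndufc2 (0.26) and Ndufs6 (0.16) had a higher effect at 12 h (1.16% of genes). The jejunum vehicle group at 12 h held the arrays with Hoxb6 and Hoxb9. Acinar genes marked replicates 52, 54, 56 and 57 of the spleen vehicle group at 6 h, and none of that at 12 h. They also marked replicates 17 and 19 of the 12 h DMF 179.2 mg/kg spleens. Changes between times are not given without these arrays, and the part of tissue content was not tested. Limma called 0 members in the other 5 organs, with 10 below an unadjusted p of 0.05 in the brain (1.12% of genes called), 10 in the kidney (7.14%), 8 in the inguinal node (3.83%), 7 in the mesenteric node (2.61%) and 2 in whole blood (0.0292%).

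By position in the complex, calls were spread over all arms rather than held by 1. In mesenteric nodes after DMF 179.2 mg/kg, 5 of 8 N module members were higher, 1 of 7 in the Q module, 2 of 7 in the proximal and 4 of 9 in the distal membrane arm (8.98% of all genes higher). In naive mesenteric nodes these counts were 6, 3 (with Ndufa9 lower), 3 and 5 (13.4% of genes higher and 11.1% lower). In naive kidneys each arm held calls both ways: 3 higher and 2 lower in the N module, 2 and 2 in the Q module, 4 and 3 in the proximal and 4 and 3 in the distal arm, where 26.8% of genes were higher and 19.2% lower. In naive jejunum the proximal arm had 6 of 7 members higher, against 3 in the N module, 2 in the Q module and 4 in the distal arm (3.61% of genes higher). All of these jejunum calls were lost without the arrays with Hoxb6 and Hoxb9. These differences between arms were not tested. Ndufa2, Ndufb2, Ndufb7 and Ndufs4 were called in no dosed comparison.

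Other genes of the respiratory chain were read from lists by function. In naive kidneys, where 26.8% of all genes were higher and 19.2% lower, these lists held calls both ways. ATP synthase genes were higher in 8 of 15 and lower in 5, and complex III genes higher in 3 of 8 and lower in 2. Complex IV genes were higher in 2 of 9 and lower in 4. Assembly factors were higher in 5 of 17 and lower in 3, near the shares of all genes. Tricarboxylic acid cycle enzymes were lower in 7 of 11 and higher in 1, Ogdh. Uqcrb of complex III (-0.46, SE 0.053) and the assembly factor Ndufaf4 (-0.48, SE 0.059) were as far below vehicle as Ndufb5, and Ndufab1, the mitochondrial acyl carrier protein that sits in complex I, was also lower (-0.30, SE 0.053). In naive jejunum, where 3.61% of all genes were higher, all called genes of these lists were higher. ATP synthase held 8 of 15, complex III 5 of 8, complex IV 4 of 9 and the cycle enzymes 4 of 11. The vehicle arrays of this comparison included those with Hoxb6 and Hoxb9, without which the complex I calls were lost. Counts of these lists are not given without them. In naive mesenteric nodes 7 of 17 assembly factors, 5 of 15 ATP synthase and 5 of 9 complex IV genes were higher (13.4% of all genes). Among complex IV genes 1, Cox8a, was lower (11.1% of all genes).

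After DMF 179.2 mg/kg the lists again went with the organ. In the spleen at 6 h, where 16.6% of all genes were higher, so were 5 of 8 complex III genes, Cyc1 by 0.38 (SE 0.066). There 6 of 17 assembly factors and 3 of 6 chaperones and proteases were also higher. Ndufab1 was higher in that comparison (0.30), in the mesenteric node (0.20) and jejunum (0.21) at 12 h and in the brain (0.21), kidney (0.13) and jejunum (0.19) at 6 h. In the kidney at 6 h, 5 of 6 mitochondrial chaperones and proteases were higher, with none lower, and Ppargc1b, a coactivator of mitochondrial gene expression, was 0.40 higher (SE 0.097). No list was tested as a set, and no list is given without the jejunum and spleen arrays with distal intestine or acinar genes.

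The dose itself was visible in Nqo1, an NRF2 target enzyme. It was called higher in all 4 dosed groups of the kidney (1.02 to 1.75) and jejunum (0.66 to 1.91) at both times, in all 4 of the mesenteric node at 6 h (0.81 to 2.60), and in the spleen at 6 h after DMF 179.2 mg/kg (2.05) and the combination (1.26). It was called in no group of whole blood and in no naive comparison. Marker genes fitted the labelled organs. Proximal tubule genes had a mean level of 10.7 to 10.8 in vehicle kidneys at 12 h. Neuronal genes had 11.8 to 11.9 in vehicle brains at 6 h. The enterocyte list averaged 11.05 to 11.29 in vehicle jejunum at 12 h. That list included Pdgfb, matched by a synonym, which is not an enterocyte marker. Mesenteric nodes also carried fat cell genes at 10.9 to 12.1.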

How the data were processed

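Total RNA of 550 mouse samples was labelled by oligo(dT) primed synthesis and hybridised to 1-colour arrays, per the labels' protocols. Each deposited value summarises 1 probe set of 1 array on a log2 scale. RMA, GCRMA, R 2.11.1 and limma 3.4.5 are named in the submitters' processing notes, without role or order. The lowest value of a set of 1 organ and time ran from 2.12 to 2.25, so each set was treated as normalized apart, and the number of arrays limits the precision.

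Of 45141 probe sets, 28898 had 1 gene symbol, 551 several, 15588 none and 104 were controls. Only probe sets of 1 gene were used, the one with the highest mean per gene and organ. Limma 3.58.1 (R 4.3.3) fitted 1 mean per group on all arrays of an organ, with Benjamini-Hochberg adjustment over 17097 genes within a comparison and a threshold of 0.05. The fit was tested on simulated data. Labels do not say that samples of a group were processed apart, so p-values measure the spread between these samples. Members named with values were, in each comparison with 3 or more calls, up to 3 called members of largest change in each direction, and otherwise those called, the core subunits and the members called most often. Members and lists were chosen with earlier results of these data known. Results were recomputed after leaving out dim genes, after quantile normalization, with the mean of probe sets, with groups fitted alone, with the place of an animal's number in its run of 12 as a covariate, and with arrays left out. Leaving out vehicle arrays of the larger groups and 3 arrays that stood apart, and using naive in place of vehicle, were chosen after seeing the data. Jejunum arrays in which Hoxb6 and Hoxb9 averaged above 6, and spleen arrays with acinar genes over 2 above the lowest array of their time were left out in 1 alternative.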

Additional observations from a re-analysis of the deposited data

Results flagged for a closer look

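Of 138 pairs of a named member and a group of 4 to 10 arrays, 12 had 1 array far from the others of its group, where chance gives about 1 in 20. Pairs share arrays and are not independent. In the kidney at 12 h, naive replicate 47 was low for Ndufa7 (10.495, others 10.634 to 10.7) and high for Ndufb5 (11.919, others 11.42 to 11.573), DMF 179.2 mg/kg replicate 23 was low for Ndufa9 (11.328, others 11.5 to 11.58) and vehicle replicate 5 was low for Ndufs6 (11.378, others 11.483 to 11.561). In the kidney at 6 h, vehicle replicate 52 was low for Ndufa9 (12.051, others 12.092 to 12.116). In the mesenteric node at 12 h, vehicle replicate 6 was high for Ndufa3 (10.821, others 10.606 to 10.684) and naive replicate 48 for Ndufa12 (10.831, others 10.296 to 10.546). In the jejunum, vehicle replicate 2 at 12 h was high for Ndufa1 (11.007, others 10.246 to 10.545) and vehicle replicate 53 at 6 h was low for Ndufv2 (11.482, others 11.615 to 11.72). In the spleen at 6 h, DMF 179.2 mg/kg replicate 67 was low for Ndufv1 (10.253, others 10.737 to 10.847), and vehicle replicate 57, which also held acinar transcripts, was high for Ndufa10 (9.424, others 9.2125 to 9.3057). In the inguinal node at 12 h, DMF 179.2 mg/kg replicate 23 was low for Ndufv1 (10.272, others 10.401 to 10.447).

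The effect of DMF 179.2 mg/kg differed between 12 and 6 h in 8 of 224 member and organ pairs (limma). In the spleen the effect at 12 h minus that at 6 h was 0.2469 for Ndufa8 (SE 0.0700, adjusted p = 0.0234), 0.2494 for Ndufa9 (adjusted p = 0.0157), 0.2787 for Ndufb3 (adjusted p = 0.0211), -0.2684 for Ndufs7 (adjusted p = 0.0138), -0.3717 for Ndufv1 (adjusted p = 0.0297) and -0.2734 for Ndufv2 (adjusted p = 0.0059). In the jejunum it was 0.2644 for Ndufc2 (adjusted p = 0.0357) and 0.1599 for Ndufs6 (adjusted p = 0.0458). Vehicle arrays with acinar genes (spleen, 6 h) or with Hoxb6 and Hoxb9 (jejunum, 12 h) were part of these comparisons. Values without them are not given.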

How the results depend on the processing

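Of the 82 member and comparison pairs that the naming rule chose against vehicle, none changed direction under any alternative run. Other values in the text, such as those between doses or times, were not included. Those still called numbered 53 with the place of the animal number as a covariate, 66 after a further quantile normalization, 81 with dim genes left out, 64 with the mean of probe sets and 50 with the groups fitted alone. Of 24 such pairs in the jejunum and spleen, 8 were still called without the arrays with distal intestine or acinar genes. Over the refits that left out 1 array, 480 of 543 calls held.

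Counts of called members are summed over the 4 dosed groups of an organ and time. With place as a covariate they went from 7 to 0 in the brain at 6 h, from 0 to 3 in the brain at 12 h, from 0 to 2 in the inguinal node at 6 h, from 2 to 0 there at 12 h, from 14 to 23 in the jejunum at 12 h and from 2 to 0 in the spleen at 12 h, and for naive from 5 to 3 in the inguinal node and from 1 to 0 in blood. After quantile normalization they were 4 in the brain at 6 h, 1 in the brain at 12 h, 4 in the inguinal node at 12 h, 1 in the jejunum at 6 h (from 6) and 0 in the mesenteric node at 6 h (from 1), and for naive 1 in the brain (from 2) and 12 in the spleen (from 7). With dim genes left out they were 6 in the inguinal node and 22 in the jejunum at 12 h. With the mean of probe sets, naive had 1 in the brain and 3 in the inguinal node. Groups fitted alone gave 0 in the inguinal node, 3 in the jejunum, 15 in the kidney (from 23), 10 in the mesenteric node (from 21) and 1 in the spleen at 12 h, 2 in the jejunum at 6 h, and for naive 0 in the brain, inguinal node and blood and 1 in the jejunum (from 16). Without the distal intestine or acinar arrays the counts were 1 in the jejunum and 0 in the spleen at 12 h, 5 in the spleen at 6 h (from 18) and 0 for naive jejunum. With naive in place of vehicle at 12 h they were 1 in the brain, 0 in the inguinal node and jejunum, 65 in the kidney, 40 in the mesenteric node and 18 in the spleen.

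Leaving out 1 array at a time, dosed counts ran from 3 to 9 in the brain, 5 to 7 in the jejunum and 14 to 20 in the spleen at 6 h, and from 0 to 7 in the inguinal node, 9 to 43 in the jejunum, 17 to 25 in the kidney, 17 to 22 in the mesenteric node and 0 to 2 in the spleen at 12 h. Naive counts ran from 0 to 8 in the inguinal node, 10 to 23 in the jejunum, 22 to 25 in the kidney, 15 to 18 in the mesenteric node, 5 to 9 in the spleen and 0 to 1 in blood. The cause of these changes was not tested. No paired analysis was possible because the groups compared hold different animals, each with a number of its own.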
